A study of Anguilla japonica with 6 samples.

Results

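The genes thrb, dio3a and aldh1a2 were followed in the pituitary of the female Japanese eel (Anguilla japonica). They were taken by their symbols from a table of 32359 genes, and all 3 were found once each. Expression had been measured by RNA-seq on total RNA in 6 libraries. The labels place 3 of them in a group called matured and 3 in a group called pre-matured. Both groups are female pituitaries, and the labels give no year of age, body size, strain, treatment or batch, and no statement of whether maturation was natural or brought on by hormones. A treatment of that kind cannot be told apart from maturation in these data. Nothing in the labels ties each library to an animal of its own, so p-values measure the spread between these samples, which may be technical. The comparison asks which genes differ between matured and pre-matured pituitaries.

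Thyroid hormone acts through nuclear receptors that sit on DNA next to their target genes, and the hormone available inside a cell is set by uptake and by deiodinases, which add to or remove its activity. The gene thrb encodes thyroid hormone receptor beta, and dio3a encodes a type 3 deiodinase, the enzyme that inactivates the hormone. In amphibians and mammals both genes are themselves known to respond to the hormone. The gene aldh1a2 encodes a retinaldehyde dehydrogenase that makes retinoic acid, a vitamin A derivative whose receptors are nuclear receptors too. Thyroid hormone receptors and retinoic acid receptors both pair with retinoid X receptors. In the vertebrate pituitary, thyroid hormone is best known for restraining the thyrotropin genes and, in mammals, for raising growth hormone.

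All 3 genes were higher in matured pituitaries. By mean FPKM (reads scaled to the length of the gene and the depth of the library), thrb was 7.93 times, dio3a 9.80 times and aldh1a2 20.2 times its pre-matured level, and for none of them did the groups overlap. Each passed the test across 17887 genes (limma on log2(FPKM + 1), Benjamini-Hochberg adjusted p under 0.05). In that test 23.4% of all genes were higher and 10.05% lower in matured pituitaries, and 33.3% of genes had every matured value above every pre-matured one, so a rise as such was common. The size was less common by the fitted log2 fold change, taken on log2(FPKM + 1). On that scale 0.889%, 1.84% and 0.503% of tested genes rose by more than thrb, dio3a and aldh1a2, in that order. It shrinks the rise of genes with low FPKM, so it places thrb above dio3a, unlike the folds of mean FPKM. The 3 genes were chosen with earlier results of these data known, so high ranks and passed tests are favoured by that choice. In bulk tissue, more cells of a type and more RNA per cell cannot be told apart.

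The receptor gene thrb stood at 44.2, 35.4 and 26.5 FPKM in matured 1, 2 and 3, against 3.57, 3.56 and 6.24 FPKM in pre-matured 1, 2 and 3. The lowest matured value was 4.25 times the highest pre-matured value. The highest pre-matured library was the third, and the lowest matured library was also the third. Its mean was 35.4 ± 8.86 FPKM in matured and 4.46 ± 1.54 FPKM in pre-matured libraries (SD, n = 3 each), and the fitted log2 fold change was 2.74 ± 0.28 (SE, 95% interval 2.11 to 3.37; limma adjusted p = 0.000902). Among genes with a value above 0, thrb lay above 94.3%, 92.4% and 90.1% of them in matured libraries, against 53.4%, 50.9% and 63.4% in pre-matured ones. Matured libraries thus had thrb near the top of the range of detected genes, and pre-matured ones near its middle.

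The deiodinase gene dio3a was the least expressed of the 3 in the matured group by mean. It stood at 9.93, 4.85 and 9.87 FPKM in matured 1, 2 and 3, against 0.165, 0.819 and 1.53 FPKM in pre-matured 1, 2 and 3. Matured 2 was the lowest of the matured libraries, and no pre-matured library reached its level. Reads rebuilt from the FPKM values numbered 251, 150 and 253 in matured libraries, against 5, 24 and 44 in pre-matured ones. The 5 reads of pre-matured 1 have an exact Poisson 95% interval of 1.62 to 11.7 reads, or 0.0534 to 0.384 FPKM. That interval, which covers counting error only, lies below those of pre-matured 2 (0.525 to 1.22 FPKM) and pre-matured 3 (1.11 to 2.06 FPKM). The mean was 8.22 ± 2.92 FPKM in matured and 0.839 ± 0.685 FPKM in pre-matured libraries (SD, n = 3 each). The log2 fold change was 2.34 ± 0.38 (SE, 95% interval 1.48 to 3.20; limma adjusted p = 0.00331). Because 1 is added to each value before the logarithm, this fold change understates the rise of a gene with levels near or under 1 FPKM.

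The retinoic acid synthesis gene aldh1a2 had the largest fold of the 3 and, relative to its mean, the widest spread in the matured group. It stood at 22.2, 13.6 and 7.46 FPKM in matured 1, 2 and 3, against 0.566, 1.05 and 0.524 FPKM in pre-matured 1, 2 and 3. The highest matured value was 2.97 times the lowest, and the lowest was still 7.10 times the highest pre-matured value. In rebuilt reads these were 782, 588 and 267 in matured libraries, against 24, 43 and 21 in pre-matured ones. The mean was 14.4 ± 7.38 FPKM in matured and 0.713 ± 0.293 FPKM in pre-matured libraries (SD, n = 3 each). The log2 fold change was 3.06 ± 0.37 (SE, 95% interval 2.21 to 3.92; limma adjusted p = 0.00142).

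**Figure D1:**
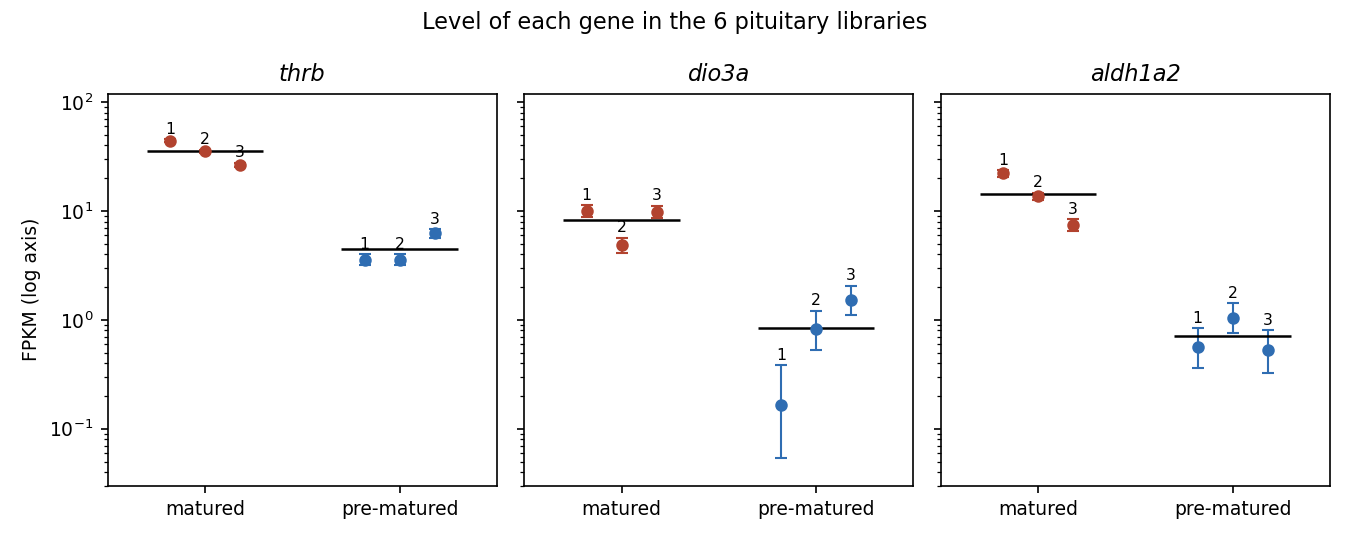
FPKM of thrb, dio3a and aldh1a2 on a log axis in the 3 matured and 3 pre-matured libraries; points are libraries with their replicate number, bars are exact Poisson 95% intervals of the rebuilt reads and black lines are group means. No matured point falls within the range of the pre-matured points, and dio3a in pre-matured 1, with 5 reads, has the widest interval.

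Since FPKM is per length, levels can be set side by side between genes. In all 6 libraries thrb had the highest FPKM of the 3. The order of aldh1a2 and dio3a was not fixed: aldh1a2 had 2.23 and 2.81 times the FPKM of dio3a in matured 1 and 2 and 0.756 times in matured 3, against 3.44, 1.28 and 0.342 times in pre-matured 1, 2 and 3. In neither group did these neighbours differ beyond their spread. Ratios taken inside a library do not depend on how libraries are scaled. They were taken on FPKM without adding 1, so they are not on the scale of the fitted log2 fold changes. The log2 ratio of thrb to dio3a was 2.15 ± 0.72 in matured and 2.86 ± 1.37 in pre-matured libraries, that of thrb to aldh1a2 was 1.40 ± 0.42 in matured and 2.67 ± 0.91 in pre-matured libraries, and that of aldh1a2 to dio3a was 0.75 ± 1.01 in matured and 0.20 ± 1.67 in pre-matured libraries (SD, n = 3 each). In each of these the groups overlapped, with two-sided exact permutation p = 0.7, 0.2 and 0.7. With 3 libraries against 3 the smallest p such a test can give is 0.1, so neither equal nor unequal rises of the 3 genes could be shown.

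Whole-library differences bear on all of these values. Depth, as rebuilt from the values, ranged over 16033675 to 19619964 reads for the matured group and over 18206029 to 19276653 reads for the pre-matured group. The deposited values summed to 500088 to 545149 FPKM in matured and 620732 to 713023 FPKM in pre-matured libraries. Over all genes the median log2 fold change was 0.23 with the values as deposited, 0.54 with TPM and -0.025 with quantile normalization, and relative to it thrb, dio3a and aldh1a2 changed by 2.51, 2.11 and 2.83 as deposited. The smallest such difference under any scaling, filter, pseudocount or left-out library was 2.31 for thrb, 1.88 for dio3a and 2.45 for aldh1a2.

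**Figure D2:**
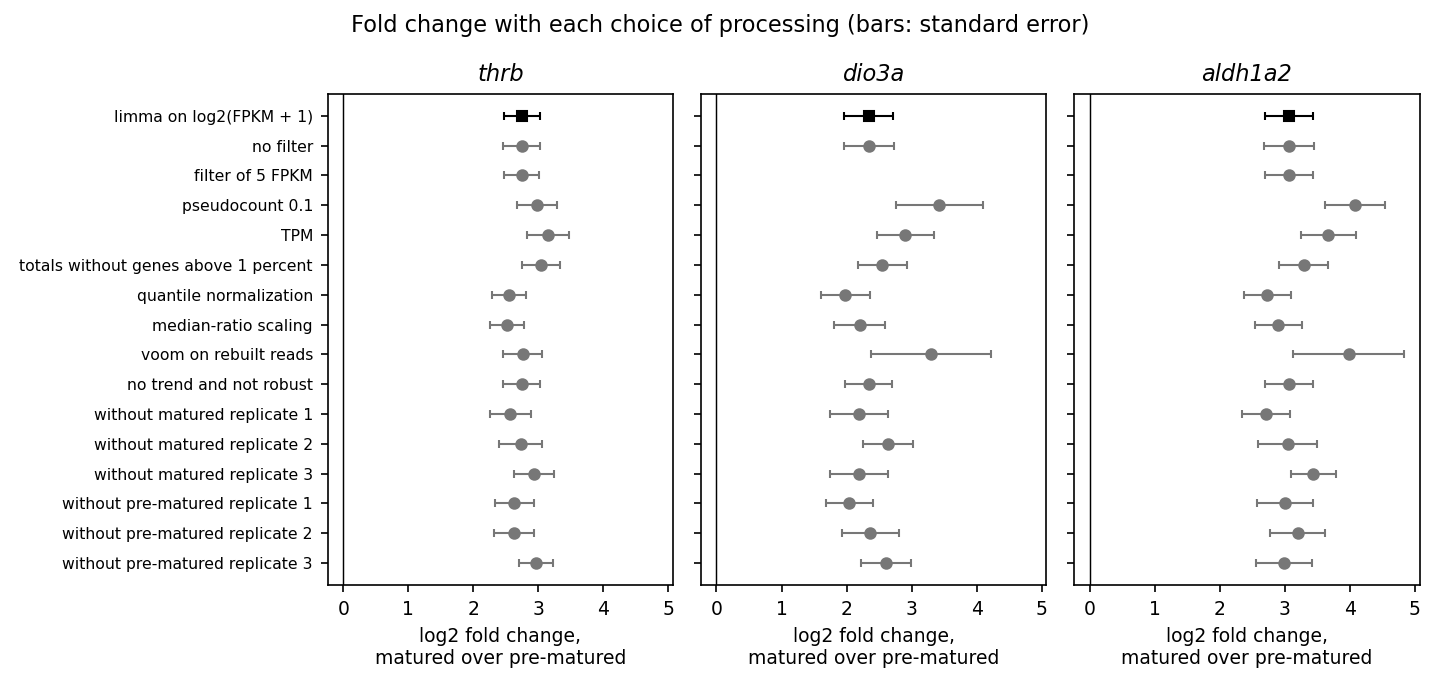
Log2 fold change, matured over pre-matured, of each gene on the x axis with its standard error, for limma on log2(FPKM + 1) (black square) and for each other choice of processing or left-out library (grey). All points lie to the right of 0, between 1.98 and 4.08; dio3a has no point at a filter of 5 FPKM, which it did not pass.

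The tissue label was checked against pituitary genes. The growth hormone gene gh1 stood at 9484 FPKM or more in matured and 1321 FPKM or more in pre-matured libraries, and the pituitary factors pou1f1, pitx1 and lhx3 were at 36.9 FPKM or more in every library. The luteinizing hormone beta subunit gene lhb, a gonadotropin gene, moved with the 3 genes and by more: it was at 13430, 5835 and 11134 FPKM in the matured group, against 0.543, 0.394 and 29.8 FPKM in the pre-matured group (log2 fold change 11.21 ± 1.13 SE; limma adjusted p = 0.00128). The follicle-stimulating hormone gene fshb and the somatolactin gene smtlb overlapped between the groups and did not pass (limma adjusted p = 0.778 and 0.0823). The pro-opiomelanocortin gene pomca stood at 26.9, 20.1 and 10.6 FPKM in the matured group, against 18.8, 30.2 and 20.5 FPKM in the pre-matured group. Its groups overlapped and it did not pass (limma adjusted p = 0.497). Of 10 pituitary lineage factors tested, pitx1, neurod1 and six3a rose (limma adjusted p = 0.0140, 0.0454 and 0.0323) and tbx19 fell. These shares, 30% and 10%, were near the 23.4% and 10.05% of all genes. Of 15 alternatives, the call of pitx1 was lost in 2 (without matured 1 and without pre-matured 1), that of neurod1 in 9 and that of six3a in 8, while those of lhb and tbx19 were lost in 0. The prolactin gene prl was above 0 in 1 library only, at 0.0436 FPKM, and prl2 is listed at 0 in all. The thyrotropin beta subunit gene tshba, whose hormone drives the thyroid, was at 0.158, 0.0323 and 0 FPKM in the matured group, against 0.131, 0.0681 and 1.01 FPKM in the pre-matured group. It was too low to be tested. Of 13 pituitary hormone symbols searched, 8 were found. Since 16895 of the 32359 genes carry LOC identifiers that could not be named, further prolactin or thyrotropin beta genes would be missed here. Of 14 stromal and meningeal markers in the table, 10 were tested and 4 rose (pdgfra, twist1b, foxc1a and col5a1), which is 40% against 23.4% of all genes, and wt1a is listed at 0. Their summed level was 92.8 to 165 FPKM in matured and 60.2 to 91.5 FPKM in pre-matured libraries. Most of this sum came from col1a1a, col1a1b, col1a2 and dcn. Each of these overlapped between the groups and did not pass (limma adjusted p = 0.169, 0.252, 0.178 and 0.232). The mesenchymal receptor gene pdgfra stood at 4.99, 5.54 and 1.91 FPKM in the matured group, against 0.408, 0.704 and 0.156 FPKM in the pre-matured group. Like aldh1a2, pdgfra was lowest in matured 3 and highest in pre-matured 2 within the groups. The same held for col1a1a, col1a1b and col1a2. This order was not particular to stromal markers. It was also that of ptprc (leukocytes), vwf (endothelium), syt1a (neural cells) and the pituitary factors pitx1 and pou1f1, though not of every marker of those types. Its share over all genes was not counted. The genes twist1b, foxc1a and col5a1 were also lowest in matured 3, but twist1b was highest in pre-matured 3, and foxc1a and col5a1 in pre-matured 1. Of the other tested stromal markers, dcn and pdgfrb were lowest in matured 2 and tcf21 in matured 1. The untested marker postnb was lower in matured libraries, at 0.0539, 0 and 0.0354 FPKM against 0.0598, 0.310 and 0.696 FPKM. Of 13 endothelial markers 1 rose (plvapb), of 8 leukocyte markers tested 1 rose (csf1ra), and of 11 neural and glial markers tested 1 rose (slc1a3a), each a smaller share than the 23.4% of all genes. Among these, foxc1a, col5a1, csf1ra and slc1a3a lost their calls in 7, 9, 10 and 3 alternatives, and pdgfra, twist1b and plvapb in 0. The only red blood cell marker tested, alas2, fell, a call lost in 6 of 15 alternatives. The list total was 4.66 to 5.53 FPKM in matured and 7.32 to 76.8 FPKM in pre-matured libraries, the latter mostly alas2 (7.12 to 76.6 FPKM). The untested red blood cell markers hemgn and klf1 were higher in matured libraries, without overlap. The first was at 1.096, 1.007 and 0.540 FPKM, against 0.273, 0.165 and 0.121 FPKM in the pre-matured group. The second was at 1.31, 1.48 and 0.714 FPKM, against 0, 0.039 and 0.438 FPKM. These markers thus did not move in 1 direction. The part of these cell types and of the gonadotropin cells in the rises of thrb, dio3a and aldh1a2 was not tested.

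Of the other deiodinases in the table, dio1 rose and dio2 did not pass. Type 1 deiodinase, dio1, which can both activate and clear thyroid hormone, rose with dio3a. It stood at 31.2, 38.6 and 33.9 FPKM in the matured group, against 0.935, 6.82 and 7.29 FPKM in the pre-matured group, with no overlap (log2 fold change 2.82 ± 0.52 SE; limma adjusted p = 0.00645). The type 2 gene dio2, whose enzyme converts the prohormone to its active form, stood at 23.8, 16.5 and 4.12 FPKM in the matured group, against 5.72, 25.05 and 24.4 FPKM in the pre-matured group. The groups overlapped and dio2 did not pass (log2 fold change -0.33 ± 0.72 SE; limma adjusted p = 0.751). Without matured 3 its fold change turned to 0.34 (limma adjusted p = 0.714).

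Ratios of these enzymes were also taken inside each library. Since 1 was again not added to FPKM, their log2 differences are not on the scale of the fitted fold changes. The FPKM of dio3a was 0.418, 0.293 and 2.40 times that of dio2 in matured libraries, against 0.0288, 0.0327 and 0.0627 times in pre-matured ones. That of dio1 was 1.32, 2.33 and 8.23 times that of dio2 in matured libraries, against 0.164, 0.272 and 0.298 times in pre-matured ones. On the log2 scale the group means differed by 4.09 for dio3a over dio2 and by 3.63 for dio1 over dio2, with no overlap in either (two-sided exact permutation p = 0.1, the smallest possible with 3 against 3, and 0.2 after Benjamini-Hochberg adjustment over the 8 ratios tested). The ratio of dio3a to dio1 overlapped between the groups, at 0.318, 0.126 and 0.291 in matured and 0.176, 0.120 and 0.211 in pre-matured libraries (exact permutation p = 0.4). These ratios were chosen after the levels had been seen. Those with dio3a rest on 5 reads of dio3a in pre-matured 1.

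Of 7 other genes of retinoic acid synthesis tested, 0 rose and 1, rdh10b, fell (14.3%), against 23.4% and 10.05% of all genes. The relative aldh1a3, which like aldh1a2 makes retinoic acid, stood at 25.7, 34.7 and 33.2 FPKM in the matured group, against 28.4, 94.6 and 41.5 FPKM in the pre-matured group. The groups overlapped, and it did not pass (log2 fold change -0.63 ± 0.40 SE; limma adjusted p = 0.257). The retinol dehydrogenase genes rdh10a and rdh10b encode enzymes of the step before, from retinol to retinaldehyde. The more abundant rdh10a was at 235 ± 100.1 FPKM in matured and 341 ± 92.1 FPKM in pre-matured libraries (SD, n = 3 each) and did not pass (limma adjusted p = 0.235). The less abundant rdh10b fell: it stood at 1.52, 2.70 and 1.87 FPKM in the matured group, against 12.5, 13.6 and 13.4 FPKM in the pre-matured group (log2 fold change -2.24 ± 0.24 SE; limma adjusted p = 0.000926). The genes dhrs3b, rdh12 and aldh8a1, all of retinoid oxidation or reduction, had log2 fold changes of 1.32, -0.51 and -0.50 and did not pass (limma adjusted p = 0.141, 0.191 and 0.222). The last of these passed with quantile normalization (limma adjusted p = 0.0378), as did rdh12 (limma adjusted p = 0.0438).

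Ratios of aldh1a2 to aldh1a3 and rdh10a, which were also chosen after the levels had been seen, were taken inside each library. Again, 1 was not added to FPKM. The FPKM of aldh1a2 was 0.862, 0.393 and 0.225 times that of aldh1a3 in matured libraries, against 0.0199, 0.0111 and 0.0126 times in pre-matured ones. Against rdh10a it was 0.0720, 0.0494 and 0.0620 times in matured libraries and 0.00169, 0.00241 and 0.00208 times in pre-matured ones. The log2 ratios differed between the groups by 4.91 and 4.89, with no overlap (two-sided exact permutation p = 0.1, the smallest possible, and 0.2 adjusted over the 8 ratios). In no library did aldh1a2 exceed aldh1a3 or rdh10a.

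**Figure D3:**
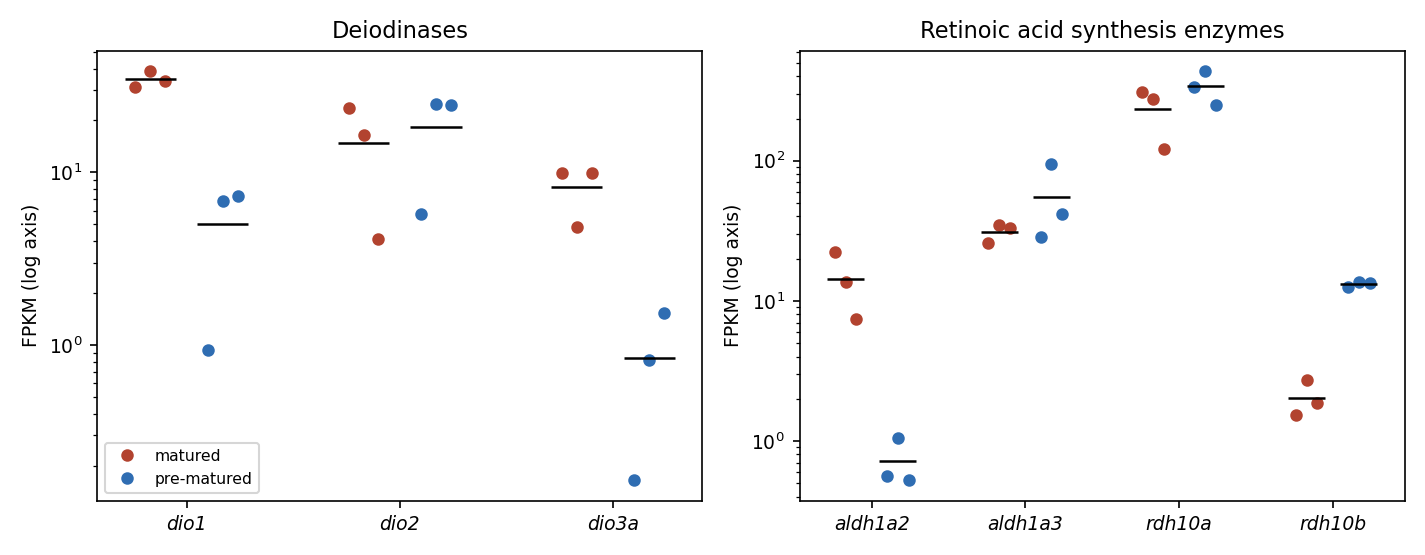
FPKM on a log axis of 3 deiodinase genes (left) and 4 genes of retinoic acid synthesis (right); each point is 1 library, matured in red and pre-matured in blue, and black lines are group means. In matured libraries dio1, dio3a and aldh1a2 are higher and rdh10b is lower without overlap, while dio2, aldh1a3 and rdh10a overlap between the groups.

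The rest of the thyroid hormone pathway was read from a list of 68 further genes found in the table, of which 55 were tested. Of these 15 rose and 5 fell, which is 27.3% and 9.09%, near the 23.4% and 10.05% of all genes. The median log2 fold change was 0.43, against 0.23 over all genes. Without matured 1, 11 rose and 3 fell, where 15.1% of all genes rose and 5.88% fell. With TPM 23 rose and 3 fell, where 32.5% of all genes rose and 5.47% fell. No other thyroid hormone receptor symbol searched for matched a gene of the table, so thrb is the only receptor of the hormone described here.

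Of 8 transporters and binding proteins tested, 4 rose (50%) and 0 fell, against 23.4% and 10.05% of all genes. The amino acid and thyroid hormone carrier gene slc7a8a stood at 22.8, 10.7 and 13.0 FPKM in the matured group, against 3.72, 1.99 and 4.32 FPKM in the pre-matured group (log2 fold change 1.90 ± 0.34 SE; limma adjusted p = 0.00455). The groups did not overlap. The carrier gene slc16a10, which encodes the transporter MCT10, rose with a log2 fold change of 0.99 (limma adjusted p = 0.0181). This call was lost without matured 1 or matured 3 and with quantile normalization or median-ratio scaling (limma adjusted p = 0.0799, 0.0503, 0.107 and 0.0519). Another that rose, aldh1l1 (log2 fold change 1.49, limma adjusted p = 0.0111), is best known as an enzyme of folate metabolism. The amino acid transporter gene slc7a5 was just outside the threshold (log2 fold change 0.89, limma adjusted p = 0.0524) and inside it with TPM, when genes above 1% of a library left the totals, with a filter of 5 FPKM and without pre-matured 3 (limma adjusted p = 0.0162, 0.0151, 0.0457 and 0.0321).

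In the thyrotropin axis 2 of 6 tested genes rose (33.3%) and 1 fell (16.7%), against 23.4% and 10.05% of all genes. The thyrotropin-releasing hormone receptor gene trhra stood at 15.9, 20.7 and 11.4 FPKM in the matured group, against 2.45, 6.27 and 4.57 FPKM in the pre-matured group (log2 fold change 1.67 ± 0.33 SE; limma adjusted p = 0.00688). The groups did not overlap. The transcriptional coactivator gene eya3, linked in mammals to thyrotropin beta expression, was at 2.46 ± 0.0637 FPKM in matured and 0.278 ± 0.171 FPKM in pre-matured libraries (SD, n = 3 each; limma adjusted p = 0.00326). The one that fell, tbx19, encodes a factor of the corticotrope lineage and not of thyrotropes, and was at 45.4 ± 4.92 FPKM in matured and 139 ± 51.8 FPKM in pre-matured libraries (SD, n = 3 each; limma adjusted p = 0.00576). The GATA factor genes gata2a and gata2b had log2 fold changes of 0.59 and 0.83 and overlapping groups, and did not pass (limma adjusted p = 0.272 and 0.269).

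Of 24 coregulators of the receptors tested, 6 rose (25%) and 2 fell (8.33%), near the 23.4% and 10.05% of all genes. The gene nrip1b, for a corepressor of nuclear receptors, stood at 23.8, 13.0 and 21.0 FPKM in the matured group, against 2.60, 5.39 and 5.60 FPKM in the pre-matured group (log2 fold change 1.88 ± 0.32 SE; limma adjusted p = 0.00394). The groups did not overlap. The corepressor complex gene tbl1x and the arginine methyltransferase gene prmt1 rose with log2 fold changes of 1.02 and 0.79 (limma adjusted p = 0.00865 and 0.0127). The call of prmt1 was lost without matured 3 and with median-ratio scaling or voom on rebuilt reads (limma adjusted p = 0.0523, 0.0574 and 0.0604). The gene trip12, a ubiquitin ligase named for binding the receptor, rose with 0.86, and trip4, a transcriptional coactivator named likewise, fell with -1.48 (limma adjusted p = 0.0117 and 0.00545).

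Genes known elsewhere as targets of thyroid hormone were called in both directions, with 2 of 15 tested higher (13.3%) and 2 lower (13.3%), against 23.4% and 10.05% of all genes. The gh1 gene stood at 28533, 9484 and 26965 FPKM in the matured group, against 3092, 1321 and 3141 FPKM in the pre-matured group (log2 fold change 3.05, limma adjusted p = 0.00479). The DNA methyltransferase gene dnmt3ab, whose mammalian counterpart is a target, rose with a log2 fold change of 1.22 (limma adjusted p = 0.0102). The uncoupling protein gene ucp1 fell, at 0.381, 1.30 and 0.955 FPKM in the matured group, against 3.42, 4.38 and 5.33 FPKM in the pre-matured group (limma adjusted p = 0.00615). The phosphatase gene dusp1 fell with -1.46 (limma adjusted p = 0.0212), a call lost without matured 1 or matured 3 and with TPM (limma adjusted p = 0.0731, 0.0681 and 0.0547). The hydroxylase gene hif1an had a log2 fold change of 0.66 and did not pass (limma adjusted p = 0.1004); it passed with TPM and when genes above 1% of a library left the totals (limma adjusted p = 0.0422 and 0.0322). The Krüppel-like factor gene klf9, among the best known direct targets in amphibians and mammals and named here after its values were seen, stood at 9.97, 3.23 and 4.95 FPKM in the matured group, against 4.11, 2.86 and 3.35 FPKM in the pre-matured group. Its groups overlapped and it did not pass (log2 fold change 0.56 ± 0.36 SE; limma adjusted p = 0.256).

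**Figure D4:**
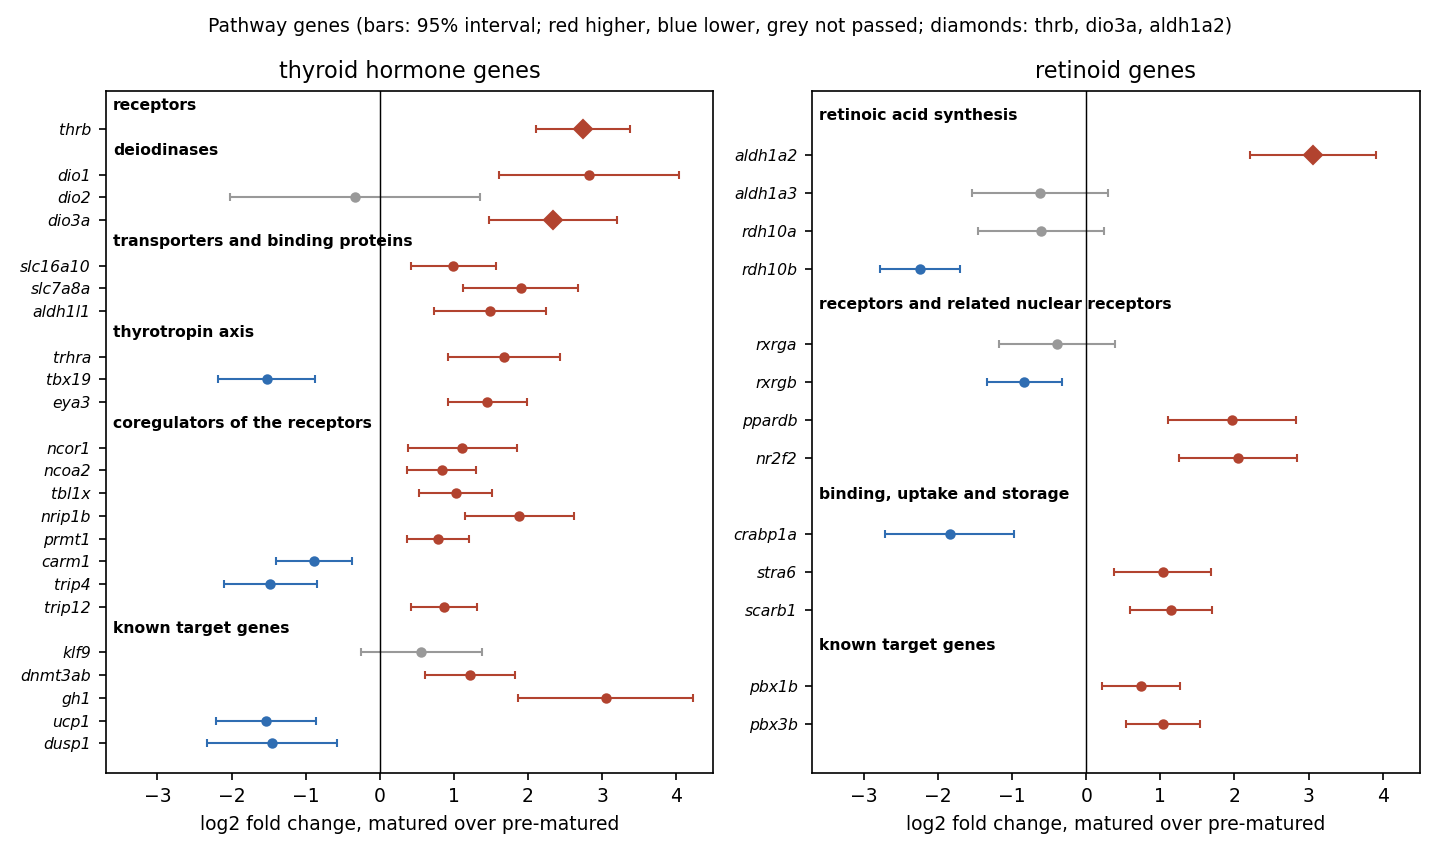
Log2 fold change, matured over pre-matured, on the x axis with its 95% interval for the genes of the thyroid hormone list (left) and the retinoid list (right) that passed the test and are reported here, with dio2, klf9, aldh1a3, rdh10a and rxrga, which did not, in grey; genes stand under their roles. Diamonds mark thrb, dio3a and aldh1a2, at 2.74, 2.34 and 3.06, with gh1 and dio1 at 3.05 and 2.82 beside them.

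The retinoid list held 55 further genes in the table, of which 35 were tested. Of these 7 rose and 3 fell, which is 20.0% and 8.57% against 23.4% and 10.05% of all genes. The median log2 fold change was 0.61, and with TPM 11 rose and 2 fell, beside the same shares of all genes under TPM. Symbols of cyp26 enzymes, which break down retinoic acid, and of retinoic acid receptors of the RAR family matched no gene of the table, so neither breakdown nor that receptor family is described here.

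Of the retinoid X receptors, the partners of both receptor families, 2 genes were found by symbol. Any with a LOC identifier could not be named. The more abundant of these 2, rxrgb, stood at 13.2, 21.5 and 18.2 FPKM in the matured group, against 28.8, 32.3 and 33.9 FPKM in the pre-matured group. It fell (log2 fold change -0.83 ± 0.22 SE, limma adjusted p = 0.0217). Thus a partner gene fell where thrb rose. This call depended on single libraries and on scaling: without matured 1, matured 3, pre-matured 2 or pre-matured 3 the limma adjusted p was 0.0803, 0.0535, 0.0503 and 0.0588, and with TPM and when genes above 1% of a library left the totals it was 0.140 and 0.107. The other gene, rxrga, was at 1.98, 2.49 and 1.17 FPKM in the matured group, against 1.47, 4.13 and 3.06 FPKM in the pre-matured group, and did not pass (limma adjusted p = 0.404).

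Of 8 receptors and related nuclear receptors tested, 2 rose (25%) and 1, rxrgb, fell (12.5%), near the shares of all genes. The orphan receptor gene nr2f2 stood at 62.1, 36.6 and 32.8 FPKM in the matured group, against 6.52, 8.004 and 15.6 FPKM in the pre-matured group (log2 fold change 2.05 ± 0.35 SE; limma adjusted p = 0.00391). The fatty acid receptor gene ppardb stood at 3.46, 9.34 and 4.89 FPKM in the matured group, against 0.159, 0.966 and 0.987 FPKM in the pre-matured group (log2 fold change 1.97 ± 0.38 SE; limma adjusted p = 0.00630). Both were without overlap. The genes roraa, nr2f1a and nr2f5 had log2 fold changes of 0.82, 0.74 and 1.14 and did not pass (limma adjusted p = 0.0740, 0.0761 and 0.131). With TPM roraa and nr2f1a passed (limma adjusted p = 0.0338 and 0.0275), and without matured 1 nr2f5 did (limma adjusted p = 0.0363).

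Of 9 genes of retinoid binding, uptake and storage, 2 rose (22.2%) and 1 fell (11.1%), near the shares of all genes. The cellular retinoic acid binding protein gene crabp1a fell, at 66.3, 64.1 and 90.2 FPKM in the matured group, against 148, 456 and 269 FPKM in the pre-matured group (log2 fold change -1.84 ± 0.38 SE; limma adjusted p = 0.00856). The groups did not overlap. The retinol uptake receptor gene stra6 rose with low values, 1.41, 1.795 and 2.98 FPKM in the matured group, against 0.718, 0.169 and 0.553 FPKM in the pre-matured group (limma adjusted p = 0.0251). This call was lost without matured 2, matured 3 or pre-matured 2 (limma adjusted p = 0.0529, 0.0801 and 0.0723), with quantile normalization and with voom (limma adjusted p = 0.183 and 0.104). The lipoprotein and carotenoid uptake gene scarb1 rose with a log2 fold change of 1.14 (limma adjusted p = 0.00910). The genes bco1l, of the carotenoid oxygenase family, and crabp2a had log2 fold changes of 0.82 and -0.47 and did not pass (limma adjusted p = 0.0601 and 0.116). The first passed with TPM and without matured 3 (limma adjusted p = 0.0215 and 0.0406), and the second with quantile normalization, median-ratio scaling and voom (limma adjusted p = 0.0483, 0.0243 and 0.0320).

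Of 14 genes known elsewhere as retinoic acid targets that were tested, 4 rose (28.6%) and 0 fell, against 23.4% and 10.05% of all genes. These were nrip1b and stra6, already described, and the homeobox genes pbx3b and pbx1b, with log2 fold changes of 1.04 and 0.74 (limma adjusted p = 0.00908 and 0.0388). The call of pbx1b was lost in 9 of 15 alternatives, among them without matured 1, matured 2, matured 3, pre-matured 1 or pre-matured 2 (limma adjusted p = 0.121, 0.115, 0.0577, 0.0868 and 0.0720). The gene nrip1a, a relative of nrip1b, was at 1.47 ± 0.340 FPKM in matured and 0.552 ± 0.225 FPKM in pre-matured libraries (SD, n = 3 each) and did not pass (limma adjusted p = 0.0638).

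Other genes shared the profiles of thrb, dio3a and aldh1a2 over the 6 libraries. Likeness was measured as the root mean square difference between centred log2(FPKM + 1) profiles, over 9680 tested genes with a symbol. Nearest to thrb was myd88, the adaptor of Toll-like receptors, at a difference of 0.116. It stood at 65.1, 49.2 and 47.1 FPKM in the matured group, against 6.26, 6.25 and 11.3 FPKM in the pre-matured group, and so shared with thrb the higher value of pre-matured 3. The next were the tetraspanin gene tspan17 (0.176) and npdc1b (0.229). In pre-matured libraries tspan17 was at 0, 0 and 0.323 FPKM, where adding 1 flattens the profile. By mean FPKM it was 49.4 times its pre-matured level, against 7.93 times for thrb. Nearest to dio3a were flvcr1, a membrane transporter gene, at 0.190, csmd2 at 0.220 and the homeobox gene dmbx1a at 0.220, and all shared its lower value in matured 2. The gene flvcr1 stood at 97.5, 49.9 and 109 FPKM in the matured group, against 13.2, 17.6 and 19.5 FPKM in the pre-matured group. Nearest to aldh1a2 were ca8, a carbonic anhydrase relative, at 0.268, dtnbb, a dystrobrevin gene, at 0.305, and prelid3a at 0.367. The gene ca8 stood at 18.4, 7.90 and 5.55 FPKM in the matured group, against 0.619, 1.099 and 0.468 FPKM in the pre-matured group. Of the 3 genes followed here, thrb and aldh1a2 differed by 0.417, thrb and dio3a by 0.467 and aldh1a2 and dio3a by 0.729. In the order of likeness thrb was number 10 for aldh1a2 and number 126 for dio3a, aldh1a2 was number 67 for thrb and number 967 for dio3a, and dio3a was number 101 for thrb and number 201 for aldh1a2. These are descriptions over 6 libraries in 2 groups, and the contrast between the groups makes up most of each profile. The nearest genes were picked by likeness over these same libraries, so the values they share within a group are favoured by that choice.

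**Figure D5:**
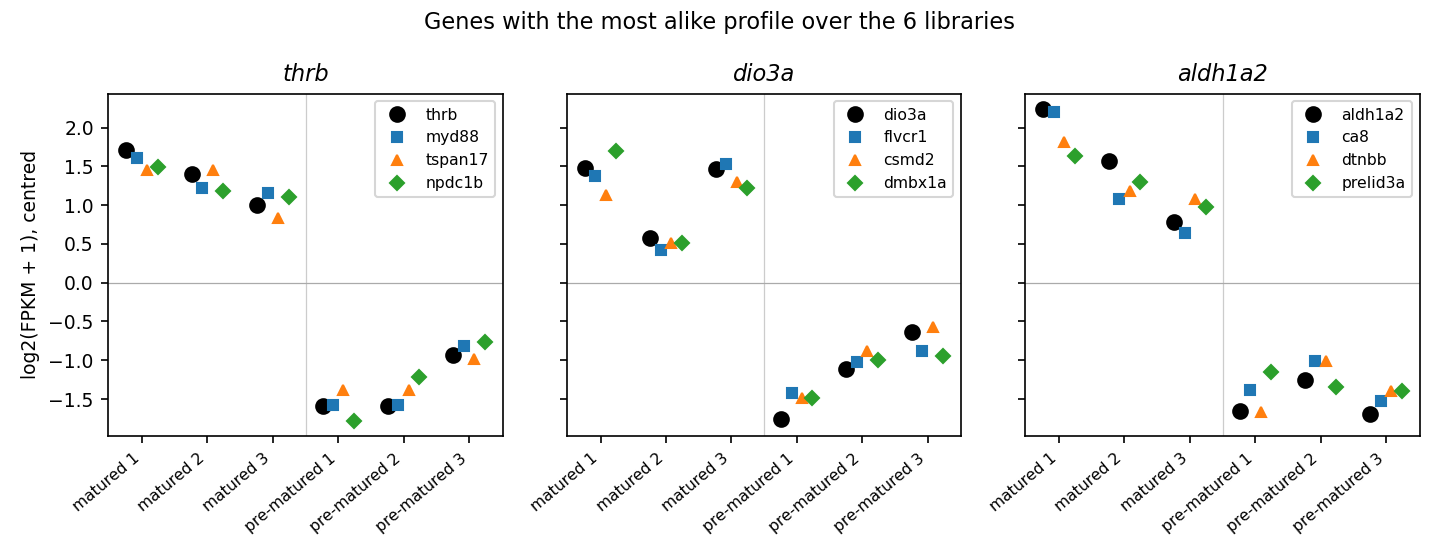
Log2(FPKM + 1), centred on each gene's mean, in the 6 libraries for thrb, dio3a and aldh1a2 (black) and, for each, the 3 genes with the smallest root mean square difference (coloured). The black points of dio3a dip in matured 2, those of aldh1a2 are lowest in matured 3 within the matured group, and thrb is higher in pre-matured 3 than in the other pre-matured libraries.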

How the data were processed

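Pituitary RNA went into 6 libraries prepared with an NEBNext Ultra II kit, per the labels' protocols. The submitters' processing notes name CASAVA 1.8. Aligner, counter, build and annotation: not given in the sources used here. As to the unit, the deposited values were read as FPKM from their totals and decimals, and RPKM would look the same. The labels' age field gave the groups; replicates were numbered by accession, and the numbers pair no samples. Genes at 1 FPKM or more in at least 3 libraries (17887) entered limma 3.58.1 (R 4.3.3, trend and robust settings) as log2(FPKM + 1), a fit that was tested on simulated data. Whole reads were rebuilt for all 27501 genes above 0, to a relative tolerance of 1e-10 (0 of 2000 scrambled genes gave whole reads); lengths and reads are uncertain for 1719 genes above 0 in 1 library only. Reads speak for counting error only. Members and gene lists were chosen with earlier results of these data known; genes with LOC identifiers could not enter a list. Named are the receptors, deiodinases, aldh1a and rxr genes, up to 5 genes of smallest p in each other role, and the 3 most alike profiles per gene; some genes that enter the counts are not reported here. Near-identical paralogs may share reads. Alternatives were other filters, pseudocounts, scalings (TPM, totals without genes above 1%, quantile, median-ratio), voom on rebuilt reads, a stricter p and leaving out each library.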

Additional observations from a re-analysis of the deposited data

How the results depend on the processing

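The rises of thrb, dio3a and aldh1a2 kept their direction and passed under every alternative run (16, 15 and 16), with limma adjusted p of at most 0.00611, 0.0271 and 0.0105. With a filter of 5 FPKM dio3a could not be tested. Left-out libraries, with the genes tested held fixed, gave log2 fold changes of 2.57 to 2.96 for thrb, 2.05 to 2.64 for dio3a and 2.71 to 3.44 for aldh1a2; all alternatives gave 2.52 to 3.15, 1.98 to 3.43 and 2.71 to 4.08. Of the thyroid hormone list, 15 genes rose and 5 fell; 7 and 3 did at an adjusted p under 0.01, 23 and 3 with TPM, 23 rose with totals taken without genes above 1%, and 11 to 17 rose and 3 to 5 fell without a library. Of the retinoid list, 7 rose and 3 fell; 11 rose with TPM and likewise when genes above 1% left the totals, 6 fell with quantile normalization, and 5 to 8 rose and 2 to 3 fell without a library. Over all genes 4184 rose and 1797 fell, against 1928 and 744 at an adjusted p under 0.01, 2714 rising with a filter of 5 FPKM, and 978, 1041, 2896 and 2727 falling with TPM, totals without genes above 1%, quantile normalization and median-ratio scaling. Without a library 2697 to 3910 rose and 1052 to 1661 fell. Of all calls, 70.0% were higher as deposited and 85.6% with TPM, against 50.1% with quantile normalization. The cause was not tested. No paired analysis was possible because the labels give no replicate numbers shared between the groups. Depth limits dio3a most, at 5 reads in pre-matured 1.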

Other observations

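Several genes of both pathways were under 1 FPKM in too many libraries to be tested, and their values are given as they stand. The matrix metalloproteinase gene mmp11a, whose amphibian counterpart is a thyroid hormone target of metamorphosis, was at 1.22, 0.621 and 1.099 FPKM in the matured group, against 0.0140, 0 and 0.0595 FPKM in the pre-matured group. The related mmp9 was at 0.839, 0.548 and 0.898 FPKM in the matured group, against 0.159, 0.124 and 0 FPKM in the pre-matured group. The thyrotropin-releasing hormone receptor gene trhr2 was at 0.520, 0.829 and 0.732 FPKM in the matured group, against 0, 0.320 and 0 FPKM in the pre-matured group. The gene bcl3, of an inhibitor family of NF-kappa-B signalling and a thyroid hormone target in mammals, was lower in every matured library, at 0.0383, 0.0781 and 0.0755 FPKM, against 0.334, 0.297 and 0.404 FPKM in the pre-matured group. In the retinoid list, tgm2b, a transglutaminase gene, was at 0.965, 0.837 and 0.389 FPKM in the matured group, against 0.229, 0.187 and 0.0694 FPKM in the pre-matured group. The binding protein gene crabp2b was above 0 in matured 2 only, at 3.72 FPKM. These genes were picked after their values were seen.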
